A study of Mus musculus with 6 samples.

Results

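The RNAs described here are 10 long noncoding RNAs of the mouse anterior prostate (AP), taken from the tables by gene symbol. All 10 were found among the 54532 rows of the expression tables that carry a gene name. Neat1, Malat1, Kcnq1ot1 and Meg3 are long RNAs that stay in the nucleus, Gas5, Snhg1, Snhg6, Snhg8 and Snhg12 are short host genes of small nucleolar RNAs (snoRNAs), and H19 was kept apart as an imprinted RNA of neither kind. Gene expression in whole AP of male mice at 20 weeks of age was measured by RNA-seq in 3 OEx and 3 Ctrl mice. OEx mice carried Pbsn-Cre and 1 Rosa26 N1ICD allele, so that the intracellular domain of Notch1 (N1ICD), its active form, was expressed in prostatic epithelium. Ctrl mice carried the same Rosa26 N1ICD allele without Cre, although the sample labels call their genotype wild type. The Pbsn promoter drives Cre in epithelial cells of the prostate, while the measured tissue also holds stromal, vascular and immune cells. The labels list each sample separately but do not say how the mice were related, and p-values measure the spread between these samples, part of which may be technical.

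Long noncoding RNAs act as RNA and are not translated into a working protein. Neat1 is the scaffold of paraspeckles, nuclear bodies built by RNA-binding proteins such as Nono and Sfpq, and Malat1 is an abundant RNA of nuclear speckles, where splicing factors gather. Kcnq1ot1, Meg3 and H19 are transcribed from imprinted clusters, in which 1 parental copy is silent. Host genes of snoRNAs release from their introns the small guides that direct chemical modification of ribosomal RNA. Their spliced exons are poor in coding potential and, as for Gas5, can be degraded by nonsense-mediated decay, and their promoters often start transcription within a run of pyrimidines, the pattern shared with ribosomal protein genes.

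The deposited values are FPKM, fragments per kilobase of exon scaled to the size of the library. The length covers all annotated exons of a gene, also those of transcripts that keep introns. Comparisons between members per length therefore depend on the annotation. With the exon lengths of the mouse annotation of GRCm38, 96.9% to 97.5% of the values under 1000 reads in a mouse were whole numbers of reads within 0.05, and the recovered depth was 14640008 to 18516583 reads per mouse. At this depth 3 reads correspond to a CPM of 0.162 to 0.205, a limit of counting only. The most abundant gene of each mouse held 14.4% to 22.2% of its reads in Ctrl mice and at most 1.13% in OEx mice. The library size used for FPKM exceeded the recovered reads in OEx mice, at 1.23 to 1.36 times their number, and fell short of them in Ctrl mice, at 0.731 to 0.821 times. The deposited values therefore already carry a scaling between mice. Replicate 3 of each genotype stood apart. Between replicates 1 and 2 the chi-square per degree of freedom over genes was 3.69 in OEx mice and 2.92 in Ctrl mice, against 50.7 to 88.8 for the pairs with replicate 3, so all pairs differed by more than counting noise, as repeat libraries of 1 mouse could too. They were counted as separate mice because the labels list them separately. Ctrl replicate 3 held 16130 FPKM of 8 seminal vesicle genes, which summed to at most 4.36 FPKM in any other mouse. The 8 luminal epithelial markers were measured in every mouse and summed to 3262 to 6350 FPKM in OEx mice and 16910 to 20690 FPKM in Ctrl mice. The 4 basal markers were all called lower and summed to 6.79 to 15.9 FPKM in OEx mice against 212 to 249 FPKM in Ctrl mice. The 5 endothelial markers, of which 1 was called lower, summed to 6.52 to 7.66 FPKM in OEx mice and 17.5 to 23.1 FPKM in Ctrl mice. No marker on these lists was at 0 in all mice, and the part of cell makeup in the differences below was not tested. In bulk tissue, fewer cells of a type and less RNA per cell cannot be told apart.

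Notch1 was first examined as the check of the labels. Its FPKM was 41.9, 47.6 and 78.9 in OEx mice and 5.18, 5.55 and 3.34 in Ctrl mice, and the log2 fold change was 3.30 (SE 0.268, limma FDR 9.91e-05). Every OEx mouse was above every Ctrl mouse, and reads of the transgene and of endogenous Notch1 cannot be told apart in these values.

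The 10 members did not move as 1 group. Genotypes were compared by limma on log2(FPKM + 1) for 12553 rows whose mean reached 1 FPKM, and a gene was called at a false discovery rate (FDR) under 0.05 with an absolute log2 fold change above 1. Of the 10 members, 7 passed the filter on low values, and Kcnq1ot1, Meg3 and H19 did not. Neat1, Malat1 and Gas5 rose in OEx mice, and Snhg6 and Snhg8 fell. Over all tested rows, 12.8% were called higher and 15.5% lower, 28.2% in all, beside 3 higher and 2 lower of 7 tested members. The median log2 fold change was 1.58 over the 2 tested long nuclear RNAs and -0.67 over the 5 host genes, while that of all tested rows was -0.07. The FPKM of every member in each mouse is shown in the plot by mouse.

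**Figure D1:**
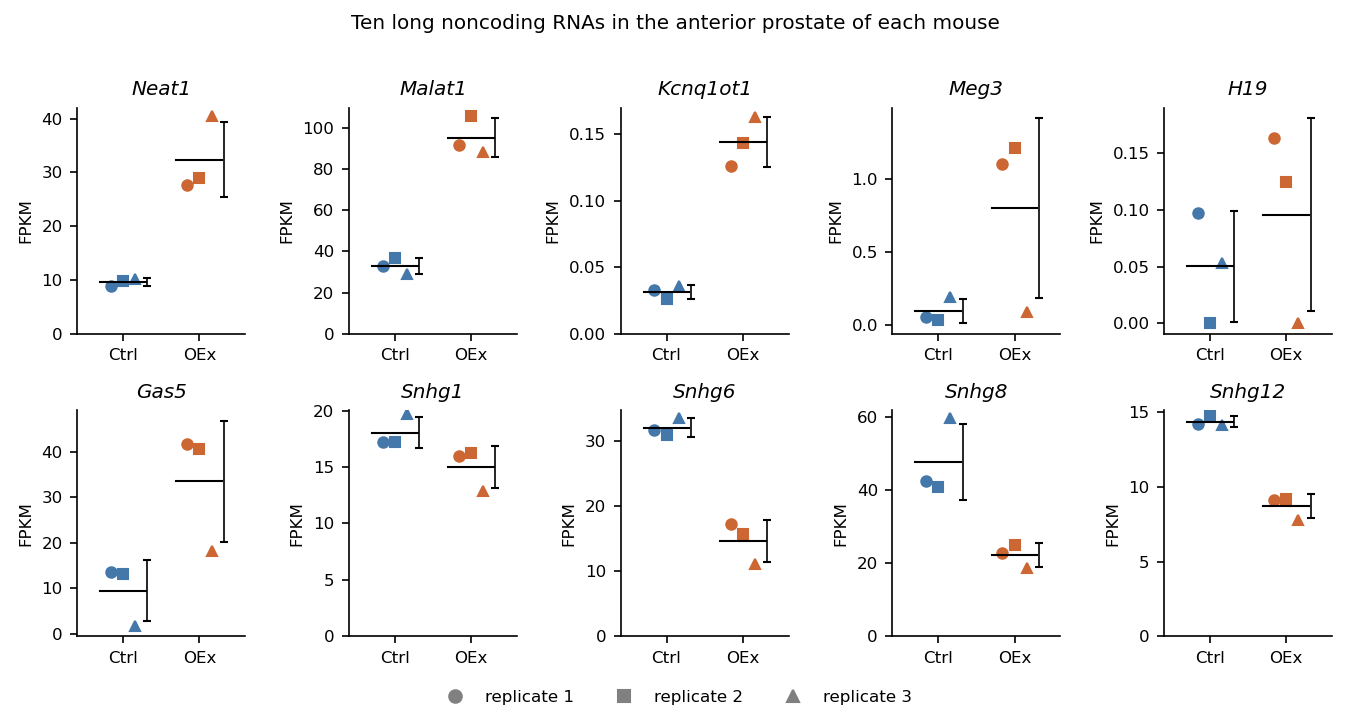
FPKM of the 10 long noncoding RNAs in each mouse, with 1 panel per RNA, Ctrl mice in blue and OEx mice in orange, the replicate number as the symbol, the horizontal line at the mean and the bar at 1 SD (n = 3). The OEx mice are above all Ctrl mice for Neat1, Malat1, Kcnq1ot1 and Gas5, below them for the 4 Snhg genes, and overlap them for Meg3 and H19.

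Neat1 lies on the minus strand of GRCm38 chr19:5824708-5845478, counted as 1 exon block of 20771 bases. The block merges 4 annotated transcripts, whose reads cannot be told apart in these values. Neat1 had 27.7, 28.9 and 40.5 FPKM in OEx mice and 8.84, 9.86 and 10.1 FPKM in Ctrl mice. The lowest OEx mouse was more than 2-fold above the highest Ctrl mouse, and OEx replicate 3 was the highest of all. The means were 32.4 ± 7.03 and 9.61 ± 0.685 FPKM (SD, n = 3 each), a ratio of 3.37, with a log2 fold change of 1.63 (SE 0.154, limma FDR 1.63e-04). The counts behind these values were 11483 to 15167 reads in OEx mice and 2297 to 3201 reads in Ctrl mice. The exact two-sided permutation p was 0.1, the smallest that 3 against 3 mice can give, as it also was for Malat1, Kcnq1ot1, Gas5 and the 4 Snhg genes. Genotypes that did not overlap were common, at 72.5% of tested rows, 33.6% with OEx higher and 38.9% with OEx lower, so the absence of overlap alone does not set these RNAs apart.

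Malat1, the neighbour of Neat1 with 22035 bases between them, lies on the minus strand of chr19:5795690-5802672. It was the most abundant member in OEx mice, at 91.5, 106 and 88.2 FPKM, and had 32.7, 36.6 and 28.8 FPKM in Ctrl mice. All 3 OEx mice were above the 3 Ctrl mice and neither group held a value far from its others. The means were 95.2 ± 9.47 and 32.7 ± 3.89 FPKM, a ratio of 2.91, with a log2 fold change of 1.52 (SE 0.12, limma FDR 8.84e-05). After a correction for GC content and exon length it was 0.89, under the fold criterion (limma FDR 0.00162). Within a mouse, log2(FPKM + 1) of Neat1 minus that of Malat1 was -1.69, -1.84 and -1.11 in OEx mice and -1.77, -1.79 and -1.42 in Ctrl mice. The ranges overlapped, and the mean difference between genotypes was 0.12. In Malat1, 6.49% of the exon bases are shared with an annotated gene on the opposite strand, and without stated strand counting the reads of both cannot be told apart.

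The start of Malat1 is shown with those of the host genes below because the host genes are known for pyrimidine runs at their starts and Malat1 is not one of them. RefSeq windows on GRCm38.p6 were matched for 7 of the 10 members, and no entry was found for Neat1, H19 and Snhg6. Each sequence runs 5′ to 3′ on the strand of the gene over 50 bases, from 25 bases before the start, and the capitals mark the longest unbroken run of C and T.
Malat1, chr19:5802648-5802697, minus strand: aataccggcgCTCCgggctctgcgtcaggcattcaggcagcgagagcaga
Kcnq1ot1, chr7:143296523-143296572, minus strand: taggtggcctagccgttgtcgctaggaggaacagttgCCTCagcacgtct
Gas5, downstream start, chr1:161035141-161035190, plus strand: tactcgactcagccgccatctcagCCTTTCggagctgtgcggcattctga
Snhg1, chr19:8723462-8723511, plus strand: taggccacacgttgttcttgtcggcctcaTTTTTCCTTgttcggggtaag
Snhg8, chr3:123508312-123508361, minus strand: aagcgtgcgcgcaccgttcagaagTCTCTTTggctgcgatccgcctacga
Snhg12, chr4:132308653-132308702, plus strand: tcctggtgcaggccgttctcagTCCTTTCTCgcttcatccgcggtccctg
The longest run was 9 bases in Snhg1 and in Snhg12, 7 in Snhg8, 6 at the downstream and 3 at the upstream start of Gas5, 5 and 4 at the starts of Meg3, and 4 in Malat1 and in Kcnq1ot1. A run of at least 8 bases was first looked for, and 2 of the 9 member windows held one, against 19.7% of all 32851 windows of the table. At 4 of the 5 host gene starts a run of at least 6 bases began within 5 bases of the start, against 12.1% of all windows, a criterion chosen after the sequences were seen, and the upstream Gas5 start held none.

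The letters TGGGAA, part of the motif bound by RBPJ, the DNA-binding partner of N1ICD, were searched on both strands of the windows of 300 bases, 250 before to 50 after each start. They were found in 3 of the 9 member windows, against 25.6% of all windows. Those 3 were an upstream start of Gas5, which rose, a downstream start of Meg3, which was not tested, and the start of Snhg12, which was not called, and the called genes Malat1 and Snhg8 had none. The Gas5 window is shown with the letters in capitals, and the Malat1 window in lower case throughout.
Gas5, upstream start, chr1:161034351-161034650, plus strand: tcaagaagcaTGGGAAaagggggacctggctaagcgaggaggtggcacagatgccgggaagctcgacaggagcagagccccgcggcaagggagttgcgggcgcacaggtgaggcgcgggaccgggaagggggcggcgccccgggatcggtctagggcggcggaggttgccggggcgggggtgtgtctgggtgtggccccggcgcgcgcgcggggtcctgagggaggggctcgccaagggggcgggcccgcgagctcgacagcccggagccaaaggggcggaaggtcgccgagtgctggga
Malat1, chr19:5802623-5802922, minus strand: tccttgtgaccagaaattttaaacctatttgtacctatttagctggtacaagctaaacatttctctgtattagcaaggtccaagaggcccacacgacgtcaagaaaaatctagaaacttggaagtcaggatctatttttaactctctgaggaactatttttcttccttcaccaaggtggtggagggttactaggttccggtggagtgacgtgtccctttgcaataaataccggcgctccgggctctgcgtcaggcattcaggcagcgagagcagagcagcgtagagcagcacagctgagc
A match is a description of these letters and not a bound site, and no match says only that the letters are absent from this window.

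Kcnq1ot1, the antisense RNA that silences genes of the Kcnq1 imprinted cluster on the paternal copy, covers 93092 bases of the minus strand at chr7:143203458-143296549, inside the span of Kcnq1. Its level was low per length, at 0.126, 0.143 and 0.163 FPKM in OEx mice and 0.0326, 0.0257 and 0.0361 FPKM in Ctrl mice. Because the RNA is so long, these values rested on 234, 305 and 274 reads in OEx mice and on 38, 31 and 51 reads in Ctrl mice. The groups did not overlap. Its mean was below the filter, so the test on log2(FPKM + 1) did not cover it, and the difference on that scale was 0.15. With limma-voom on the recovered reads, an alternative that covers rows of at least 10 reads in every mouse, its log2 fold change was 2.18 (SE 0.218, FDR 1.18e-04), 4.52-fold higher in OEx mice. That test called 16.9% of 12441 rows higher and 18.6% lower. Kcnq1 itself, a potassium channel on the opposite strand, had 6.59, 7.01 and 4.47 FPKM in OEx mice and 2.68, 2.43 and 3.99 FPKM in Ctrl mice, with a log2 fold change of 0.80 (SE 0.202, limma FDR 0.0116), under the fold criterion. Reads from introns of Kcnq1 and reads from Kcnq1ot1 cannot be told apart without stated strand counting.

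The other genes of the Kcnq1 cluster did not move together. Of 11 genes 8 were tested, of which 1 was called higher and 1 lower, and their median log2 fold change was 0.03. Slc22a18, a membrane transporter, rose, from 3.24 ± 1.25 to 7.74 ± 0.921 FPKM. Tssc4, a factor of splicing particle assembly, fell, from 38.7 ± 6.46 to 14.5 ± 0.867 FPKM. Cdkn1c, the CDK inhibitor p57, had 1.74 ± 0.152 FPKM in OEx mice and 2.49 ± 0.643 FPKM in Ctrl mice, a log2 difference of -0.33 that missed the test (limma FDR 0.0913). Phlda2, a growth restraining gene of placenta, had 5.51 ± 0.762 FPKM in OEx mice and 3.91 ± 1.15 FPKM in Ctrl mice, a log2 difference of 0.43 that also missed it (limma FDR 0.0853).

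Meg3, a maternally expressed RNA of the Dlk1 imprinted cluster at chr12:109541001-109571726 on the plus strand, was split within the OEx mice. It had 1.10, 1.21 and 0.0888 FPKM in OEx mice and 0.0574, 0.0342 and 0.189 FPKM in Ctrl mice, resting on 397, 500 and 29 reads and on 13, 8 and 52 reads. OEx replicates 1 and 2 were high, and OEx replicate 3 was below Ctrl replicate 3, so the groups overlapped. Meg3 was below the filter, the log2(FPKM + 1) difference was 0.65, and the exact permutation p was 0.2. With the filter lowered to a mean of 0.1 FPKM it was not called (limma FDR 0.0838). Rian, the next noncoding RNA of that cluster, had 0.635, 0.568 and 0.0334 FPKM in OEx mice and 0.057, 0.0212 and 0.101 FPKM in Ctrl mice. It split in the same mice as Meg3, while Dlk1, the protein-coding gene of the cluster, was listed at 0 in 5 mice and at 0.0137 FPKM in the sixth. Of the 7 genes of the cluster 2 were tested and neither was called.

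Some genes of connective tissue and macrophages, chosen after their values were seen, split the same way. Col3a1, a fibroblast collagen, had 83.9, 84.1 and 3.67 FPKM in OEx mice and 8.21, 7.95 and 14.7 FPKM in Ctrl mice. Lum, a matrix proteoglycan, had 16.7, 14.2 and 1.54 FPKM in OEx mice and 1.73, 1.86 and 3.44 FPKM in Ctrl mice. Csf1r, the macrophage growth factor receptor, had 13.2, 14.1 and 3.73 FPKM in OEx mice and 4.14, 3.53 and 5.59 FPKM in Ctrl mice. In all 3, as in Meg3 and Rian, OEx replicates 1 and 2 were the highest and OEx replicate 3 was below Ctrl replicate 3. This split held for 3 of the 10 stromal and muscle markers, 5 of the 7 immune markers and 0 of the 5 endothelial markers. Its share over all tested rows was not counted. Replicate 3 of each genotype stood apart over genes in general, so these counts alone do not set the markers apart. Over whole marker lists, the 7 immune genes summed to 8.09 to 32.8 FPKM in OEx mice and 8.26 to 15.9 FPKM in Ctrl mice, with 0 of 3 tested genes called. The 10 stromal and muscle genes summed to 311 to 574 FPKM in OEx mice and 832 to 1718 FPKM in Ctrl mice, with 4 of 10 called lower and 0 higher. No marker on either list was at 0 in all mice, and the part of these cells in the Meg3 values was not tested.

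**Figure D2:**
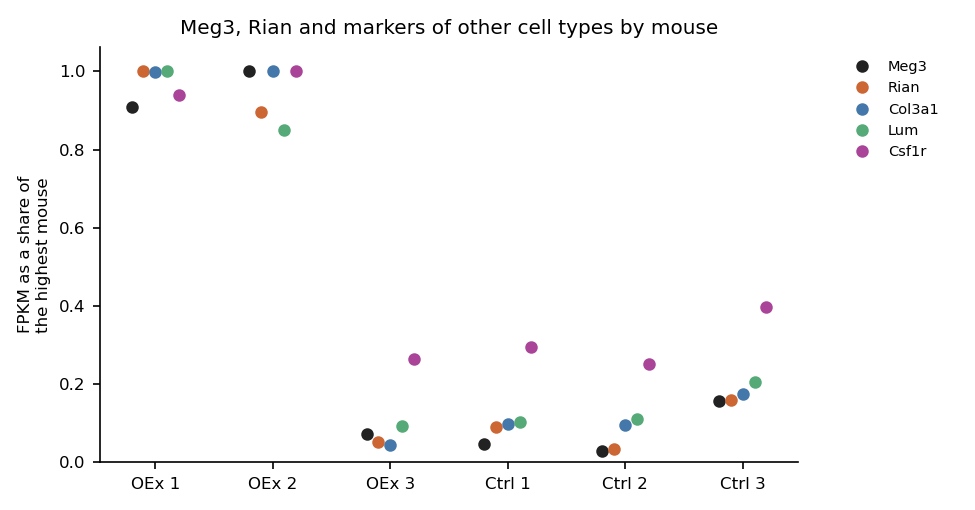
FPKM of Meg3, Rian, Col3a1, Lum and Csf1r in each of the 6 mice, as a share of the highest mouse of that gene, with points of 1 color per gene. For all 5 genes OEx replicates 1 and 2 are near the top, and OEx replicate 3 lies below Ctrl replicate 3.

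H19, the maternally expressed RNA beside Igf2 at chr7:142575529-142578143 on the minus strand, was at the edge of detection. The OEx mice held 8, 7 and 0 reads of H19 and the Ctrl mice 3, 0 and 2, which correspond to 0.163, 0.124 and 0 FPKM and to 0.0975, 0 and 0.0535 FPKM. A count of 0 allows up to 3 reads, or 0.0676 FPKM in OEx replicate 3 and 0.0942 FPKM in Ctrl replicate 2, so a difference was not detectable at this depth (exact permutation p = 0.5). Igf2, its growth factor neighbour, had at most 0.0575 FPKM in any mouse, and Ins2 was listed at 0 in all 6. Of the 5 genes of that cluster 2 were tested, and Mrpl23, a mitochondrial ribosomal protein gene, fell, from 12.6 ± 1.47 to 4.74 ± 0.168 FPKM.

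Among the 5 host genes all were tested, and 1 was called higher and 2 lower. By FDR alone 1 was higher and 3 were lower, where 30.9% and 36.5% of all tested rows were. Gas5, on the plus strand of chr1:161034422-161038539, carries the snoRNAs of 10 annotation entries, and its spliced form is a known target of nonsense-mediated decay. It had 41.8, 40.7 and 18.1 FPKM in OEx mice and 13.6, 13.2 and 1.68 FPKM in Ctrl mice, resting on 1231 to 3500 and on 96 to 645 reads. Every OEx mouse was above every Ctrl mouse, and replicate 3 was the lowest mouse of both genotypes. The means were 33.6 ± 13.4 and 9.50 ± 6.78 FPKM, with a log2 fold change of 1.98 (SE 0.702, limma FDR 0.0419) and a 95% interval of 0.30 to 3.66. The call was lost without OEx replicate 1 (1.78, limma FDR 0.111) and without OEx replicate 2 (1.80, limma FDR 0.111). Without Ctrl replicate 3 the log2 fold change was 1.17 (limma FDR 0.0364). Without replicate 3 of both genotypes, chosen after seeing the data, it was 1.55 (limma FDR 1.34e-05). That fit rests on replicates 1 and 2 alone, which lay close together, so its FDR measures only their small spread.

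Snhg6, host of Snord87 on the minus strand of chr1:9941959-9944118, fell in OEx mice. It had 17.2, 15.7 and 11.1 FPKM in OEx mice and 31.7, 30.9 and 33.6 FPKM in Ctrl mice. The Ctrl mice lay close together and every OEx mouse was below them, with the lowest value again in replicate 3. The means were 14.7 ± 3.18 and 32.1 ± 1.39 FPKM, with a log2 fold change of -1.10 (SE 0.158, limma FDR 9.74e-04). Without OEx replicate 3 it was -0.92, under the fold criterion (limma FDR 4.69e-04). Of its exon bases, 11.1% are shared with Mcmdc2 on the opposite strand.

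Snhg8, host of Snora24 on the minus strand of chr3:123507552-123508404 and the most abundant member per length in Ctrl mice, also fell. It had 22.9, 25 and 18.6 FPKM in OEx mice and 42.5, 40.9 and 59.7 FPKM in Ctrl mice. The groups did not overlap, and Ctrl replicate 3 was well above the other Ctrl mice. The means were 22.2 ± 3.29 and 47.7 ± 10.4 FPKM, with a log2 fold change of -1.06 (SE 0.177, limma FDR 0.00187). It was -0.94 without OEx replicate 3 and -0.89 without Ctrl replicate 3, both under the fold criterion with limma FDR of 0.0056 and 0.00225.

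Snhg12, on the plus strand of chr4:132308623-132311024 with 5 snoRNA entries, had the smallest spread among the host genes relative to its mean. It had 9.16, 9.19 and 7.82 FPKM in OEx mice and 14.2, 14.8 and 14.1 FPKM in Ctrl mice. Every OEx mouse was below every Ctrl mouse. The means were 8.72 ± 0.785 and 14.4 ± 0.352 FPKM, with a log2 fold change of -0.67 (SE 0.0899, limma FDR 7.36e-04), which passed the FDR and not the fold criterion.

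Snhg1, on the plus strand of chr19:8723475-8726443 with 8 snoRNA entries, was not called. It had 16, 16.2 and 12.9 FPKM in OEx mice and 17.2, 17.2 and 19.7 FPKM in Ctrl mice. The groups did not overlap, but OEx replicates 1 and 2 were close to Ctrl replicates 1 and 2. The log2 fold change was -0.25 (SE 0.114, limma FDR 0.0882), with a 95% interval of -0.53 to 0.02.

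The rows of the snoRNAs themselves held almost no reads. Of 25 annotated entries inside the 5 host genes, 21 had 1 row of their own, and 20 of these had 0 reads in all 6 mice. Snord87, inside Snhg6, had 1 read in each OEx mouse and 0 in each Ctrl mouse. Of the 25 entries 24 lie in bases counted as host exon, because the annotation holds transcripts that keep the introns. Snord87 is the only entry outside them, and all 20 entries with 0 reads lie inside. A read on such a snoRNA also overlaps its host, and how the counting treated such reads is not given. A 0 there does not show that the snoRNA was absent. Through the same transcripts 91.3% of the Gas5 span and 100% of the Snhg1, Snhg8 and Snhg12 spans were counted as exon, so spliced and unspliced host RNA cannot be told apart.

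The order of the members per length differed between genotypes. It rests on the annotated exon lengths, which cover 53.1% of the span of Snhg6 and 100% of that of Snhg8, so it is not an order of molecules. In Ctrl mice Snhg8 was highest, followed by Malat1 and Snhg6, whose ranges overlapped, then Snhg1, Snhg12 and, with overlapping ranges, Neat1 and Gas5. In OEx mice Malat1 was highest, followed by Gas5 and Neat1 with overlapping ranges, then Snhg8, Snhg1 and Snhg6, the last of these overlapping with Snhg1, and Snhg12. The range of Gas5 in OEx mice also held that of Snhg8, so these are not separated. Meg3, H19 and Kcnq1ot1 were at the bottom in both, and their ranges overlapped with the next in order.

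The kinds of RNA were also set against each other within each mouse. The mean log2(FPKM + 1) of the 5 host genes minus that of the 4 long nuclear RNAs was 1.17, 1.07 and 0.77 in OEx mice and 2.37, 2.29 and 1.98 in Ctrl mice. The highest OEx value was below the lowest Ctrl value, and the means of 1.0 ± 0.21 and 2.21 ± 0.20 (SD, n = 3) differed by -1.21, and by -0.91 under library totals. Kcnq1ot1 and Meg3 lie mostly under the pseudocount and hardly follow a scaling. Against Neat1 and Malat1 alone the host genes were at -1.36, -1.5 and -2.11 in OEx mice and at 0.31, 0.14 and -0.04 in Ctrl mice. The means of these differed by -1.80, by -1.81 under library totals and by -1.33 after the correction for GC content and exon length. Without Gas5 the host genes minus all 4 long nuclear RNAs had means of 0.79 ± 0.12 and 2.55 ± 0.11, differing by -1.76. Gas5 minus the mean of the other 4 host genes was 1.37, 1.33 and 0.55 in OEx mice and -0.78, -0.81 and -3.41 in Ctrl mice. Gas5 was thus above the mean of the other hosts in each OEx mouse, although below Snhg8 in OEx replicate 3, and below that mean in each Ctrl mouse. No test was made on these differences, as they are scores over chosen members.

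**Figure D3:**
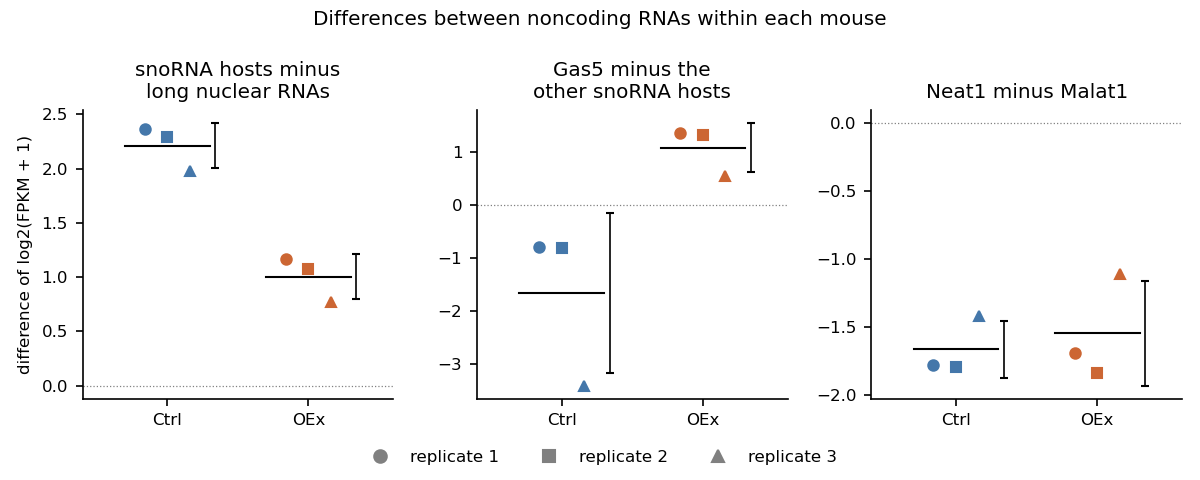
Differences of log2(FPKM + 1) within each mouse, with the host genes minus the long nuclear RNAs on the left, Gas5 minus the other host genes in the middle and Neat1 minus Malat1 on the right, Ctrl mice in blue, OEx mice in orange, the line at the mean and the bar at 1 SD (n = 3). The OEx mice lie at 0.77 to 1.17 and the Ctrl mice at 1.98 to 2.37 on the left, and the genotypes overlap on the right.

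The scaling between mice set the direction of the small changes of host genes. When FPKM were rescaled to the total of recovered reads, the median of all tested rows rose by 0.64, and 3853 rows were called higher and 528 lower, in place of 1604 and 1941. Under library totals Snhg1 had a log2 fold change of 0.49 (limma FDR 0.0297) and Snhg12 one of 0.06 (limma FDR 0.68), while Snhg6 had -0.35 and Snhg8 had -0.30, neither past the test. With totals that leave out the 20 most abundant genes, 2453 rows were called higher and 1135 lower. Upper-quartile scaling over tested rows gave 2311 and 1233. In those scalings Snhg1 had 0.07 and 0.02, Snhg6 had -0.77 and -0.82, and Snhg8 had -0.73 and -0.78. Neat1, Malat1 and Gas5 were called higher in all 3 of these settings. Taking the upper quartile over all detected rows, an alternative chosen after seeing the data, turned the split, with 1313 rows called higher and 2408 lower. In it Gas5 missed the test (1.84, limma FDR 0.057), Snhg6 had -1.25 and Snhg8 -1.21, both called, and Snhg1 had -0.40 (limma FDR 0.0216). Relative to the median of all tested rows, Snhg6 was at -1.02 as deposited and -0.91 under library totals, Snhg8 at -0.99 and -0.87, and Snhg12 at -0.59 and -0.51.

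A correction for GC content and exon length moved both kinds of RNA. GC content, taken from the longest transcript of each gene, was 47.3% in Neat1, 42.5% in Malat1, 42.3% in Gas5 and 40.5% in Snhg1. After the correction Neat1 had a log2 fold change of 1.05 and was still called (limma FDR 6.78e-04). Malat1, as given above, and Snhg8 at -0.87 (limma FDR 0.00261) were then under the fold criterion, and Gas5 had 1.54 (limma FDR 0.111). Snhg6 had -1.27 (limma FDR 6.99e-04) and remained called, and Snhg1 had -0.74 (limma FDR 0.00166).

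**Figure D4:**
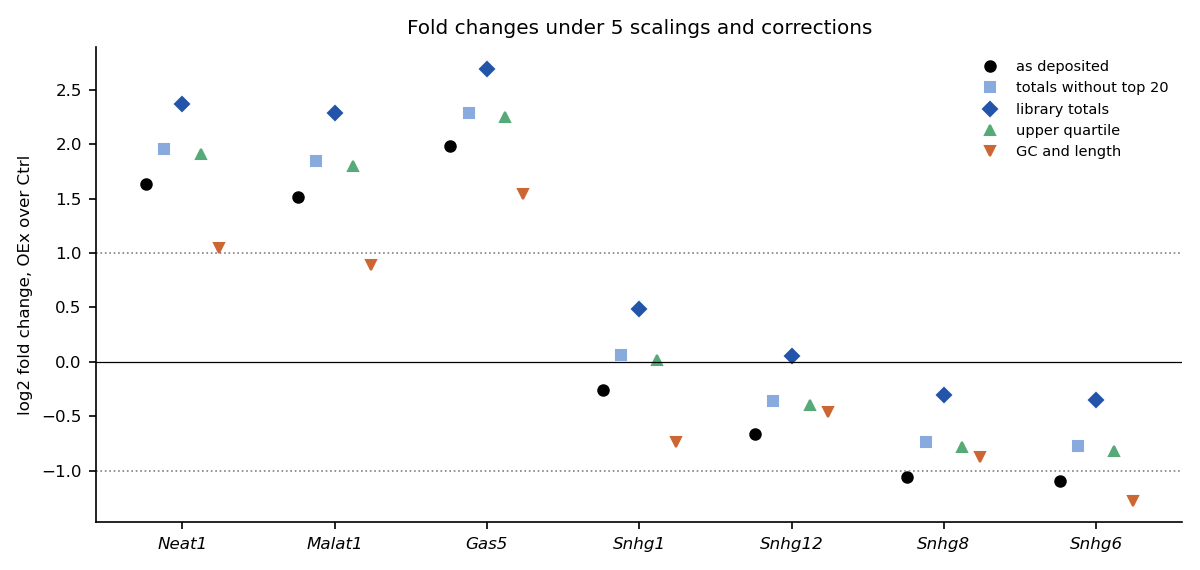
Log2 fold change of the 7 tested members, OEx over Ctrl, as deposited and under 3 other scalings and a correction for GC content and exon length, with 1 symbol per setting and dotted lines at the fold criterion. Neat1, Malat1 and Gas5 stay above 0 in every setting, Snhg6 and Snhg8 stay below 0, Snhg12 is just above 0 under library totals, and Snhg1 is above 0 in all 3 scalings other than the deposited one.

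Noncoding genes were also examined by lists and by annotated type, and the counts by type include the tested members. Neat1, Malat1, Snhg6 and Snhg12 are annotated as lincRNA genes. Of 208 tested lincRNA genes 68 were called higher and 38 lower, and of 193 tested antisense genes 69 and 22, with median log2 fold changes of 0.40 and 0.52. Gas5, Snhg1 and Snhg8 are annotated as processed transcripts. Of 103 tested genes of that type 22 were called higher and 8 lower, with a median of 0.45. Of 10825 tested protein-coding genes 1190 were higher and 1651 lower, with a median of -0.08. In a list of 23 other known long noncoding RNAs 21 were found and 7 tested, of which 3 were called higher and 0 lower, with a median of 0.92. Airn, the imprinted antisense RNA of Igf2r, rose to 9.38 ± 1.28 FPKM in OEx mice, from 1.65 ± 0.43 FPKM in Ctrl mice. Firre, a nuclear RNA of the X chromosome, rose as well, with 34.5 ± 5.34 and 10.1 ± 1.54 FPKM, as did Tug1 with 9.78 ± 0.37 and 4.06 ± 0.684 FPKM.

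The other noncoding snoRNA hosts also went both ways. Of 16 listed 14 were found and 11 tested, and 2 were called higher and 2 lower around a median of 0.48 on the log2 scale. Snhg11 (1.40, limma FDR 0.00169) and Snhg5 (1.18, limma FDR 8.06e-04) rose, and Zfas1 (-1.24, limma FDR 4.16e-04) and Epb41l4aos (-1.09, limma FDR 9.72e-04) fell. Zfas1 was at 22.8, 23.8 and 16.4 FPKM in OEx mice and 47.7, 50.2 and 52.7 FPKM in Ctrl mice, with no overlap. Of 14 tested protein-coding hosts 3 rose and 1 fell, with a median of -0.49. Taf1d, a subunit of the RNA polymerase I selectivity factor, had 5.46 ± 0.604 FPKM in OEx mice and 0.953 ± 0.0527 FPKM in Ctrl mice. Eef2, the translation elongation factor, fell (-1.08, limma FDR 0.0012).

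The proteins that work with these RNAs were counted in the same way. Over all tested rows 12.8% were called higher and 15.5% lower, and 30.9% were higher by FDR alone. Of 13 paraspeckle proteins 13 were tested, and 3 were called higher and 0 lower around a median of 0.63 on the log2 scale. By FDR alone 9 were higher. Hnrnph3 (1.80) and Tardbp (1.08), RNA-binding proteins of the nucleus, were among the paraspeckle proteins called higher. The 3 core proteins were named after their values were seen, and none met the fold criterion, with 0.63 for Sfpq (limma FDR 9.71e-04), 0.42 for Pspc1 (limma FDR 0.0276) and 0.15 for Nono (limma FDR 0.133). Of 15 tested proteins of snoRNA particles and their assembly 2 rose and 2 fell, with a median of -0.30. The 2 that rose are also among the protein-coding snoRNA hosts that rose, so the lists overlap. Nop58 (1.5), a core protein of box C/D particles, and Dkc1 (1.33), the pseudouridine synthase of box H/ACA particles, rose, while Nop10 (-1.62) and Nhp2 (-1.26), small proteins of the same H/ACA particle as Dkc1, fell. Of 12 tested nonsense-mediated decay factors 3 rose and 0 fell, with a median of 0.01. These were Smg1 (1.61), the kinase of Upf1, and Upf3b (1.5) and Upf2 (1.36), which bridge the decay machinery to exon junctions. All fold changes of this paragraph are from limma on log2(FPKM + 1).

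**Figure D5:**
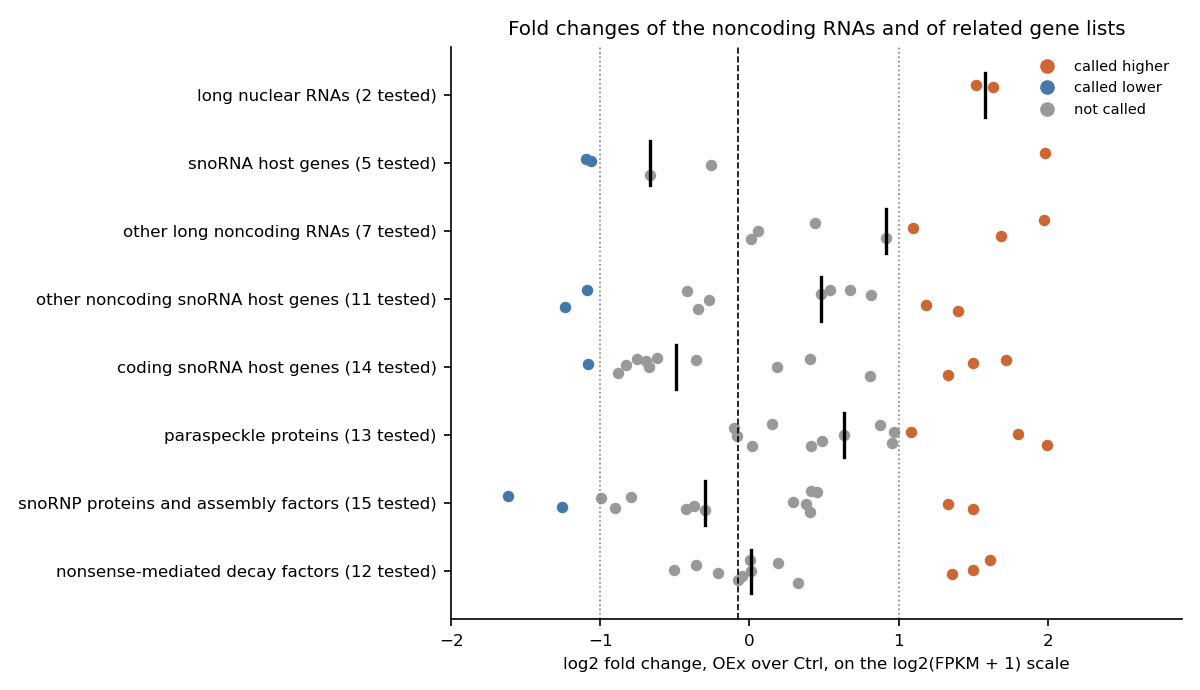
Log2 fold changes, OEx over Ctrl on the log2(FPKM + 1) scale, of the tested members and of 6 related gene lists, with 1 point per gene, called genes in orange or blue, a black bar at the median of each list, a dashed line at the median of all tested rows and dotted lines at the fold criterion. The medians run from -0.67 for the member host genes to 1.58 for the long nuclear RNAs, and the host lists hold points on both sides of 0.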

How the data were processed

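The authors deposited 1 table of FPKM values per mouse, by gene symbol, made with an in-house pipeline from libraries of a TruSeq RNA kit. The submitters' processing notes name HISAT2 2.0.5, featureCounts 1.5.0-p3, StringTie 1.3.3b and CASAVA without their roles, and the genome build, the version of the kit and the strand setting of the counting are not given in the sources used here. Each table held 55076 rows, of which 544 without a gene name (0.632% to 1.21% of the FPKM sum) were left out. Rows were matched by symbol to GENCODE M21 (53710 rows), and reads were recovered as FPKM times exon length over the step of the mouse.

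The genotypes were compared on log2(FPKM + 1) by limma (3.58.1, with R 4.3.3), with an intensity trend and the group as the only term, and FDR was the Benjamini-Hochberg adjusted p over all tested rows. The pseudocount understates changes of low genes. Permutation tests were exact over 20 assignments of mice. Alternatives were other pseudocounts, filters and scalings, limma-voom on recovered reads, a lowess correction for GC content and exon length with a span of 0.3, the replicate number as a block, and each mouse left out. In simulated data, 86.6% of 97 genes changed by 1.5 on the log2 scale and 97.9% of 95 changed by 2 were called, as were 4 of 11828 unchanged genes, over 12020 genes. The simulated libraries had the same dispersion for every gene, no replicate set apart and few changed genes. These shares are thus a check of the fit and not the power or error rate of the real comparison.

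Members and lists were chosen with earlier results of these data known. Named genes are the members, Notch1, up to 4 called genes per direction of each list and imprinted neighbours of members. Kcnq1, Cdkn1c, Phlda2, Rian, Dlk1, Igf2 and Ins2 came under the last, and Col3a1, Lum and Csf1r were chosen after their values were seen. Values of 1 listed gene are not reported here. Figures were drawn with Python 3.11.15 and matplotlib 3.10.9.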

Additional observations from a re-analysis of the deposited data

How the results depend on the processing

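Over all tested rows, 445 were called higher and 1135 lower with a pseudocount of 5, 3853 and 528 with library totals, 2453 and 1135 with totals without the top 20 genes, 2311 and 1233 with upper-quartile scaling, 1366 and 1181 with the GC content and exon length correction, and 3875 and 4584 by FDR alone. Leaving out 1 mouse gave 1569 to 1671 higher and 1910 to 1963 lower.

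Called members lower in OEx mice, all of them host genes, were 0 with a pseudocount of 5 (Snhg6 -0.93, Snhg8 -0.95), with library totals (-0.35 and -0.30), with totals without the top 20 genes (-0.77 and -0.73), with upper-quartile scaling (-0.82 and -0.78) and, chosen after seeing the data, without replicate 3 of both groups (-0.89 and -0.77). They were 1 with the GC content and exon length correction, where Snhg8 had -0.87. Leaving out 1 mouse gave 0 to 2 of them, with 0 without OEx replicate 3 and 1 without Ctrl replicate 3. The log2 fold change ran from -1.22 to -0.92 for Snhg6 and from -1.16 to -0.89 for Snhg8.

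Called members higher were 1 with the GC content and exon length correction, namely Neat1, so 1 long nuclear RNA, as Malat1 (0.89) lost its call, and 0 host genes. Leaving out 1 mouse gave 2 or 3 members higher and 0 or 1 host genes higher. Gas5 lost its call with a pseudocount of 0.1 (2.19, limma FDR 0.052), with no filter (1.98, 0.0838), with a filter of a mean of 0.1 FPKM (1.98, 0.0508), with the upper quartile over all detected rows, chosen after seeing the data (1.84, 0.057), and with the GC content and exon length correction (1.54, 0.111), so host genes called higher were then 0. Leaving out 1 mouse moved Gas5 from 1.17 to 2.39, and the call was lost without OEx replicate 1 or 2.

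Snhg1 reversed to 0.49 with library totals, 0.065 with totals without the top 20 genes and 0.020 with upper-quartile scaling, and Snhg12 to 0.055 with library totals. Snhg12 (-0.67) passed by FDR alone and Kcnq1ot1 (2.18) with limma-voom. The within-mouse difference of host genes and long nuclear RNAs was -1.71 with a pseudocount of 0.1, -0.96 with a pseudocount of 5 and -0.91 with library totals. Its GC content and exon length correction was not run, because Kcnq1ot1 and Meg3 were under the filter, but against Neat1 and Malat1 alone it moved the difference from -1.80 to -1.33. The causes were not tested.

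The labels give both groups replicates 1 to 3. Deviations of same-numbered mice from their group means had correlations of -0.31 to -0.19, and no mouse correlated best with its own number. In both groups these deviations mostly set replicate 3 against replicates 1 and 2. The correlations therefore cannot decide whether the numbers pair the mice or mark a shared batch. The replicate block gave 1565 rows higher and 1906 lower and changed no member call. With the GC content and exon length correction added, the replicate block gave 1304 and 1163, with 1 member lower and, among members higher, 1 long nuclear RNA, Neat1, and Gas5 (1.54, limma FDR 0.0201). Malat1 at 0.89 and Snhg8 at -0.87 were not called.

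Of 160 alternatives for the fold changes of members 130 kept direction and call. Other filters, the replicate block and FDR alone leave the fold change as it is, so direction could not differ there. Kcnq1ot1, Meg3 and H19 had no main test and were counted as kept where they were not called. The share kept is thus partly fixed in advance. Depth limits H19, with 15 reads in 3 OEx mice, and Meg3 in Ctrl mice.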

Other observations

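Some long noncoding RNAs and host genes below the filter had values that belong to no comparison above, and they were chosen after their values were seen. Mir17hg, the host of a miRNA cluster, had 1.71 ± 0.518 FPKM in OEx mice and 0.138 ± 0.00926 FPKM in Ctrl mice (SD, n = 3). Ftx, a noncoding RNA of the X-inactivation centre, had 0.81 ± 0.0711 and 0.162 ± 0.0924 FPKM, and Snhg14, the long host transcript of the imprinted Snrpn region, had 0.333 ± 0.106 and 0.0586 ± 0.0299 FPKM. Hotair was listed at 0 in both groups.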
